A study of Mus musculus with 6 samples.

Results

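The genes described here encode the proteins of the cytosolic ribosome, measured on 6 single-colour Agilent mouse arrays of sorted CD4+ T cells. A gene was taken as a member when the RefSeq accession of its probe mapped to a symbol starting Rpl or Rps followed by a number, or to an Rplp gene or Rpsa. Kinases of the Rps6k family, Rps19bp1 and pseudogenes were left out. This gave 88 genes with 151 probes. Of these, 77 were core genes (46 of the large subunit and 31 of the small subunit) and 11 were paralogues or other copies. 82 of the 88 reached a mean log2 intensity of 8, or 256 on the linear scale, with a usable spot on every array, and were tested among the 8582 genes that met the same minimum. The tested members were 45 large-subunit genes, 31 small-subunit genes and 6 paralogues or other copies. Each gene is represented by its probe with the highest mean.

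The cells were TEa cells, CD4+ T cells with a transgenic Vα2 and Vβ6 receptor that responds to donor antigen from Balb/c mice. Congenic CD45.1+ mice received CD45.2+ TEa cells on day -1 and a Balb/c heart on day 0, and the transferred cells were recovered from the spleen by sorting on day 6. The Irf4 KO blockade group (2 arrays) held TEa cells labelled Irf4-/- from recipients injected on days 0, 3 and 5 with 200 µg of an antibody to PD-L1 and 200 µg of one to CTLA-4. The Irf4 KO IgG group (2 arrays) held TEa cells labelled Irf4-/- from recipients injected on the same days with 400 µg of rat IgG. The WT IgG group (2 arrays) held wild-type TEa cells from recipients labelled as given rat IgG, with no dose stated. Cells of all 3 groups thus carried the TEa receptor and met a heart graft, and the strain is labelled C57BL/6. The 2 arrays of a group come from independent experiments. Whether the cells of an array were pooled from several recipients is not given in the sources used here.

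Each ribosome needs about equal numbers of nearly all of its proteins, and ribosomal protein mRNAs are among the most abundant in a cell. Most of them begin with a cytosine followed by a run of pyrimidines, the 5′ terminal oligopyrimidine (TOP) tract, through which mTORC1 and the RNA-binding protein Larp1 control their translation. T cells enlarge their pool of ribosomes when an antigen activates them. Irf4 is a transcription factor that T cells make in proportion to the strength of receptor signalling, and PD-L1 and CTLA-4 are targets of checkpoint blockade. The comparisons address what loss of Irf4 changes in alloreactive T cells, and what blockade changes in cells that lack it. In total RNA of bulk sorted cells, fewer cells of a type and less RNA per cell cannot be told apart, and mRNA level says nothing of translation.

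The 3 groups differed on the arrays in more than the ribosomal protein genes. The scanner software called 42.1% and 37.2% of spots well above background on the 2 arrays with blockade, 67.6% and 76.5% with Irf4 KO IgG and 40.1% and 42.9% in WT. Among 31511 probes dim on each WT array, 0.517% exceeded background on both arrays with blockade and 38.3% did so with Irf4 KO IgG. All 13 T cell markers, such as Cd3e and Cd4, were above background on every array. The 12 B cell markers summed to an intensity of 810 and 804 with blockade, 5010 and 24995 with Irf4 KO IgG and 638 and 578 in WT, with 5 to 6, 12 and 5 to 6 of them above background. The 11 measured myeloid markers summed to 4414 and 7205 with blockade, 8681 and 69493 with Irf4 KO IgG and 4353 and 5241 in WT. The 6 measured erythroid markers summed to 11239 and 6909 with blockade, 1520 and 54510 with Irf4 KO IgG and 189 and 763 in WT. Irf4 itself had an intensity of 2071 and 1703 with blockade, 2128 and 3073 with Irf4 KO IgG and 673 and 1068 in WT, so its probe was brighter in both groups labelled KO (log2 fold change 1.43, adjusted p = 0.0175 for Irf4 KO IgG against WT, and 1.41, adjusted p = 0.0167 for blockade against WT, limma). That goes against the label, and whether the probe lies in the deleted stretch is not given in the sources used here, so the text speaks of cells labelled Irf4 KO. The part of these array differences in the ribosomal protein values was not tested except where a value is given.

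Ribosomal protein genes filled the top of the intensity scale on every array. The brightest member, Rps18, a small-subunit protein at the head of the subunit, had an intensity of 304877 and 261140 with blockade, 225988 and 273356 with Irf4 KO IgG and 297633 and 330895 in WT. The median member had 118908 and 104658 with blockade, 94386.5 and 135410 with Irf4 KO IgG and 111562 and 138194 in WT. The ranges of the 3 groups overlapped on this unscaled intensity. On each array 31 to 34 of the 100 brightest genes and 76 to 77 of the 400 brightest were members, and 1.51% to 1.67% of tested genes were brighter than the median member. Intensities of different probes depend on their sequence, so the order within the family is not an order of mRNA abundance.

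The median change of the family between the groups was near 0. With quantile normalisation among the 8582 genes, which gives every array the same set of values, the median log2 fold change of the 82 members was 0.003 in Irf4 KO IgG against WT, -0.013 in blockade against Irf4 KO IgG and -0.004 in blockade against WT. The medians over all tested genes in the same comparisons were -0.02, 0.03 and 0.004. The median absolute deviation of the members' changes was 0.11, 0.10 and 0.10, against 0.33, 0.38 and 0.29 over all tested genes. Other very bright genes had a spread close to that of the members: over the 209 genes that are no members and have a mean log2 of at least 16, the range that holds 65 members, it was 0.14, 0.13 and 0.13. Members with a positive log2 fold change numbered 41, 37 and 38 of 82. The 3 comparisons share their arrays in pairs, so they are not independent of each other.

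**Figure D1:**
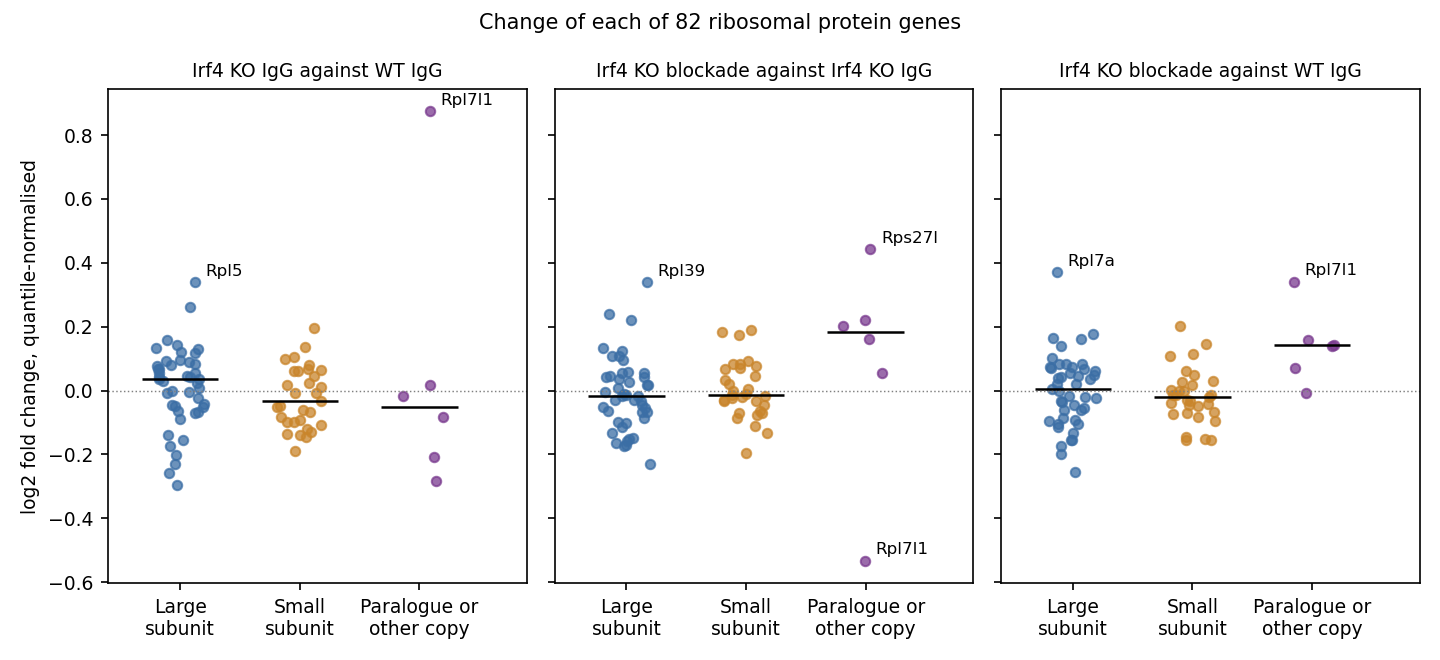
log2 fold change (vertical axis, quantile-normalised scale) of each of the 82 tested ribosomal protein genes in the 3 comparisons; points are genes in 3 classes, black bars are class medians, and genes more than 3 scaled median absolute deviations from the members' median are named. The large-subunit and small-subunit medians lie between -0.03 and 0.03 in all 3 comparisons, and Rpl7l1 lies at 0.87 in Irf4 KO IgG against WT.

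In Irf4 KO IgG against WT, limma with Benjamini-Hochberg adjustment over all tested genes called 1 of 82 members, the paralogue Rpl7l1, against 1.86% of all tested genes (160 of 8582). At an unadjusted p under 0.05 it was again 1 of 82, against 23.4% of all tested genes. In blockade against Irf4 KO IgG limma called 0 of 82 members, against 0.326% of all tested genes, and 2 of 82 had an unadjusted p under 0.05, against 28.5%. In blockade against WT limma called 0 of 82, against 1.11%, and 2 of 82 had an unadjusted p under 0.05, against 19.2%. None of the 76 core members passed in any of the 3 comparisons on this scale. Other bright genes had few calls too: limma called 0 of the 209 other genes at a mean log2 of at least 16 in each comparison, and 8.61%, 16.3% and 3.83% of them had an unadjusted p under 0.05. Members whose 2 arrays lay wholly above or below those of the other group numbered 20 higher and 19 lower in Irf4 KO IgG against WT (23.1% and 29.2% of all tested genes), 17 and 17 in blockade against Irf4 KO IgG (34% and 28.9%), and 19 and 13 in blockade against WT (27.7% and 27.1%). The typical member's 95% confidence interval, not adjusted for the number of genes, reached 0.29 to either side of its log2 fold change, a factor of 1.22. Calls rest on the p adjusted over all tested genes, so larger changes of single members also went uncalled with 2 arrays a group. The highest log2 fold change of a member in blockade against Irf4 KO IgG, 0.44, did not pass.

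The medians of the large and the small subunit lay close together. The median log2 fold change over the 45 tested large-subunit genes was 0.03 in Irf4 KO IgG against WT, -0.02 in blockade against Irf4 KO IgG and 0.004 in blockade against WT. Over the 31 small-subunit genes it was -0.03, -0.01 and -0.02. Rps6, a small-subunit protein and the substrate of S6 kinase, had an intensity of 110353 and 94876.8 with blockade, 88732.8 and 135385 with Irf4 KO IgG and 105836 and 127849 in WT, and log2 fold changes of 0.05, -0.09 and -0.04 in the same order of comparisons. Rplp0, the core of the ribosomal stalk, had 143525 and 125356 with blockade, 100531 and 133779 with Irf4 KO IgG and 128061 and 148714 in WT, and 0.22 in blockade against Irf4 KO IgG (adjusted p = 0.233, limma). Fau, a small-subunit protein made as a fusion with a ubiquitin-like protein, which the naming rule leaves out, also did not pass, at -0.16 in Irf4 KO IgG against WT and 0.18 in blockade against Irf4 KO IgG.

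The level of the family as a whole depended on the scale. When each array was instead centred on the median of the 8582 genes, the median member stood 6.76 and 6.94 log2 units above it with blockade, 6.37 and 6.28 with Irf4 KO IgG and 6.75 and 6.60 in WT. Both Irf4 KO IgG arrays were thus the lowest on that scale, and the median log2 fold change was -0.34 in Irf4 KO IgG against WT, 0.52 in blockade against Irf4 KO IgG and 0.18 in blockade against WT. Without any scaling the medians were -0.13, -0.01 and -0.15. With all detected genes and the 75th percentile of each array's probes as the scale they were -1.33, 1.53 and 0.20, and limma then called 81 of 86 members lower in Irf4 KO IgG against WT, against 27.4% of all detected genes, and 82 of 86 higher in blockade against Irf4 KO IgG, against 27.9%, with 0 in the other direction in each. On that scale the bright genes as a whole fell by 1.05 in Irf4 KO IgG against WT.

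**Figure D2:**
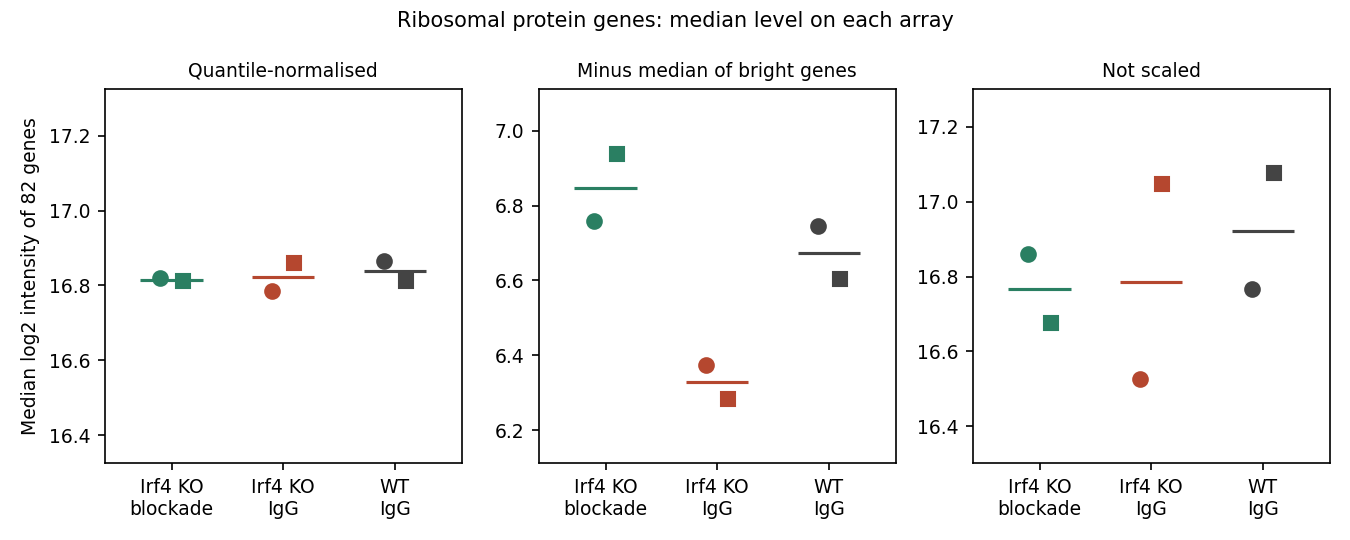
Median log2 intensity of the 82 tested ribosomal protein genes on each array (circles array 1, squares array 2, bars the mean of the 2 arrays) on 3 scales: quantile-normalised, minus the array's median over 8582 genes, and not scaled. The axes of the 3 panels span the same number of log2 units; both Irf4 KO IgG arrays, at 6.37 and 6.28, are the lowest on the centred scale and are not set apart on the other 2.

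Other genes of the same brightness shifted by the same amount on the centred scale. The 209 other genes with a mean log2 of at least 16 had a median of -0.34 in Irf4 KO IgG against WT, 0.53 in blockade against Irf4 KO IgG and 0.17 in blockade against WT, beside -0.34, 0.52 and 0.18 for the members. The 2013 other genes between 8 and 9 had 0.16, -0.17 and -0.01. Quantile normalisation removes any such shift by construction, since a gene that keeps its rank at the top of each array keeps its value. A change common to all very bright genes therefore cannot be seen on the quantile-normalised scale.

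**Figure D3:**
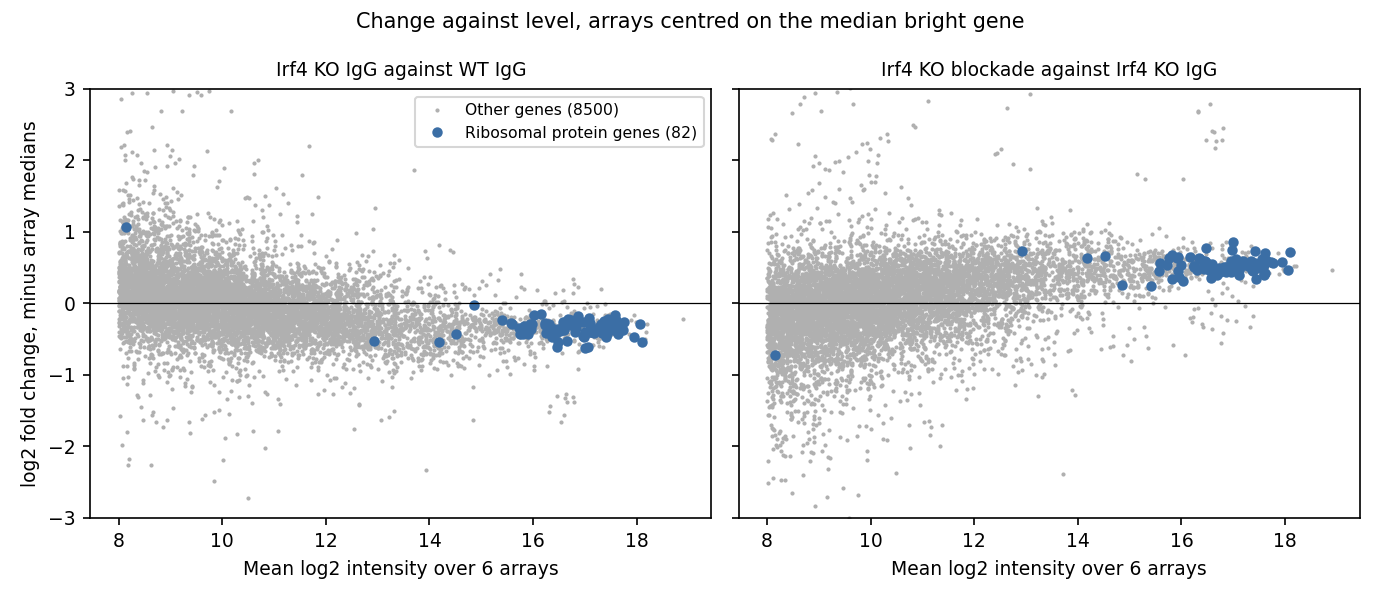
log2 fold change (vertical axis, each array centred on its median over 8582 genes) against mean log2 intensity over the 6 arrays (horizontal axis) for the 82 ribosomal protein genes (blue) and 8500 other genes (grey), in 2 comparisons; 26 and 12 genes lie outside the vertical range. The ribosomal protein genes lie among other genes of their brightness, below 0 in Irf4 KO IgG against WT and above 0 in blockade against Irf4 KO IgG, except Rpl7l1 at the dim end.

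The promoters of the family are given as background, and their part in the members' changes was not tested. Of the 88 members, 67 had a promoter window in the RefSeq table (GRCm38.p6), which runs from 250 bases before to 50 bases after the annotated start. A cytosine at the annotated start followed by at least 4 further pyrimidines stood in 14 of the 67 (20.9%) and in 2.96% of 26958 other genes. The letters CTTCCG, the core to which ETS factors bind, searched on both strands over the whole window, stood in 43 of the 67 (64.2%) and in 18.7% of the others. The letters AAGATGGC, a form of the YY1 motif, likewise on both strands, stood in 6 (8.96%) and in 3.18%. The first 5 letters of CTTCCG are pyrimidines and can overlap such a tract. These are matches of letters at annotated starts, which often miss the base where a TOP mRNA begins. The windows printed here run from 50 bases before the start to 15 bases from it, with the pyrimidine tract at the start in capitals. Rps6 and Rps27 (a small-subunit zinc-finger protein) hold it, and the paralogues Rpl22l1 and Rpl7l1 hold none at their annotated starts. Most of the 67 members hold none either, among them the core gene Rps24 at both of its annotated starts. Rps6 lies at chr4:86857353-86857417 (minus strand), Rps27 at chr3:90213634-90213698 (minus strand), Rpl22l1 at chr3:28805458-28805522 (plus strand) and Rpl7l1 at chr17:46782642-46782706 (minus strand).
Rps6: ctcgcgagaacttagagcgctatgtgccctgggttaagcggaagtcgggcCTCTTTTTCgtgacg
Rps27: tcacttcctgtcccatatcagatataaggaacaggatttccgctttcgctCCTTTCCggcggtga
Rpl22l1: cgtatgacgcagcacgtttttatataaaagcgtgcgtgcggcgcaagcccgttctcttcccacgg
Rpl7l1: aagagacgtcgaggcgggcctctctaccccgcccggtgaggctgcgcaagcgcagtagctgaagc

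Rpl7l1 was the member that left the common trend. It is a relative of the large-subunit gene Rpl7, and its yeast counterpart Rlp7 takes part in the assembly of the large subunit. Its 1 probe had an intensity of 253 and 181 with blockade, 427 and 610 with Irf4 KO IgG and 177 and 248 in WT. Both Irf4 KO IgG arrays were above all 4 others, and blockade and WT overlapped on this unscaled intensity. The normalised log2 level was 8.10 ± 0.02 with blockade, 8.64 ± 0.08 with Irf4 KO IgG and 7.76 ± 0.01 in WT (SD, n = 2 each), and on this scale the 3 groups did not overlap. The log2 fold change was 0.87 (SE 0.11, adjusted p = 0.0336, limma) in Irf4 KO IgG against WT, a factor of 1.83, but the call was lost with a block for the replicate number (adjusted p = 0.0779, limma) or for the slide row (adjusted p = 0.0568, limma). The log2 fold change was -0.53 (adjusted p = 0.0741, limma) in blockade against Irf4 KO IgG and 0.34 (adjusted p = 0.189, limma) in blockade against WT, neither of which passed. A fit of every gene relative to the median core member of its array called the same single member, at 0.90 (SE 0.12, adjusted p = 0.0372, limma; 1.95% of all tested genes called) in Irf4 KO IgG against WT, and called 0 members in blockade against Irf4 KO IgG and 0 in blockade against WT (0.839% and 1.07% called). At an unadjusted p under 0.05 that fit had 1, 2 and 2 members, against 22.5%, 28.4% and 19.4% of all tested genes.

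The call for Rpl7l1 depended on the setting. It was the dimmest tested member, with a mean log2 of 8.15, just inside the minimum of 8, and the next, Rps27l, stood at 12.93. The members just outside were Rps4l at 6.40 and Rpl39l at 5.59. Rpl7l1 was under the minimum intensity of 256 on every blockade and WT array and above it on both Irf4 KO IgG arrays. It thus reached the minimum only through the group in which it was then called higher, so the call is not independent of that filter. With a minimum of 7 in place of 8, Rpl7l1 was at 0.81 in Irf4 KO IgG against WT (adjusted p = 0.0432, limma). The adjusted p in Irf4 KO IgG against WT was 0.0580 to 0.168 when 1 array was left out (limma), for each of the 6 arrays, although the log2 fold change stayed between 0.83 and 0.95. With each array centred on the median of all its probes in place of the bright genes, Rpl7l1 was lower in Irf4 KO IgG against WT, at -1.58 (adjusted p = 0.00218, limma), while the median member was at -2.99. In blockade against Irf4 KO IgG it was then higher, at 2.09 (adjusted p = 0.000762, limma). With the 75th percentile as the scale it was at 0.08 and 0.30 in these comparisons and did not pass. Relative to the family it was higher under all 19 other settings, by 0.65 to 1.43, and passed under 10 of them. These settings are not all separate, since subtracting the family's median cancels any factor common to an array. The median bright gene, the 75th percentile, the median of all probes and no scaling thus gave the same 1.43. On the scale centred on bright genes, other genes at 8 to 9 had a median of 0.16 and those of at least 16 had -0.34. The part of that difference in the Rpl7l1 value was not tested. Of the 2013 other genes at a mean log2 of 8 to 9, 3.18% were called in that comparison, the highest share of any level range. B cell, myeloid and erythroid markers were brighter on the same 2 arrays, and their part in the Rpl7l1 values was not tested.

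**Figure D4:**
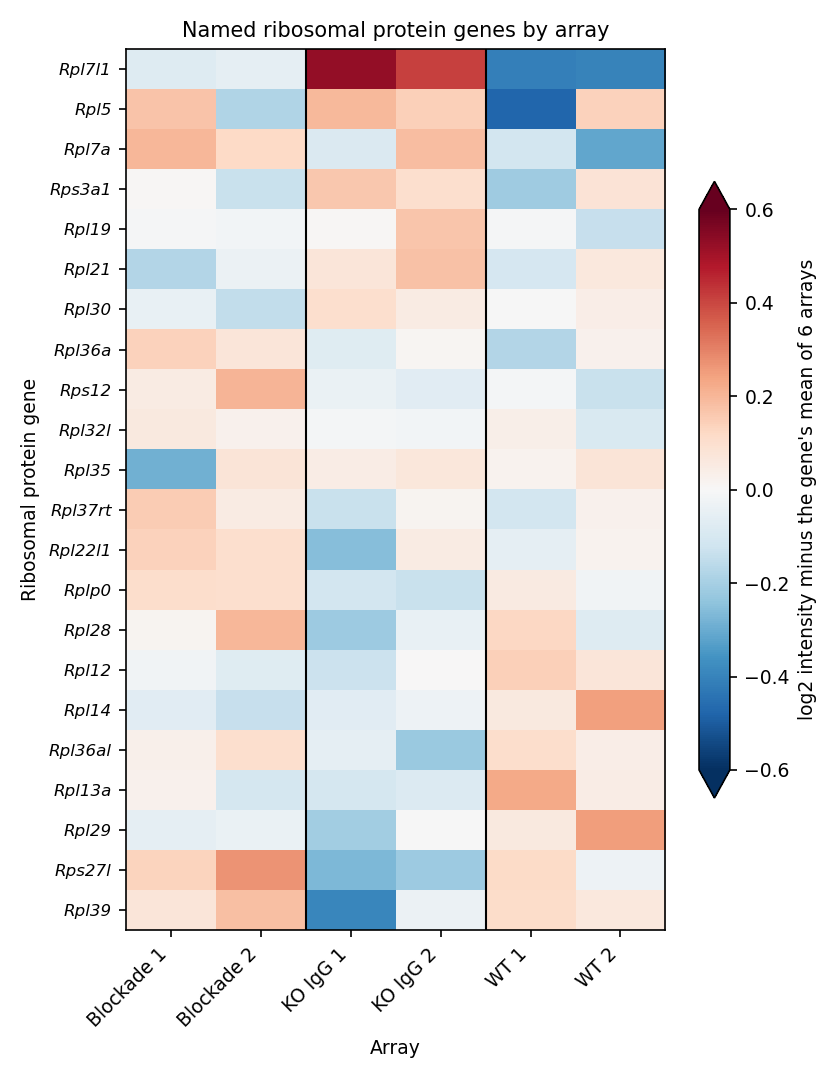
log2 intensity (quantile-normalised) minus the gene's mean over the 6 arrays, as colour, for 22 tested ribosomal protein genes that pass, lie farthest from the members' median or are paralogues (rows, ordered by log2 fold change in Irf4 KO IgG against WT) on the 6 arrays (columns). Rpl7l1 is high on both Irf4 KO IgG arrays; the values of Rpl5 and Rpl39 differ as much within a group as between groups.

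Among the other paralogues, Rps27l came nearest to a call. It is a close copy of Rps27 and a known p53 target. Its intensity was 8257 and 7587 with blockade, 5429 and 8830 with Irf4 KO IgG and 8084 and 9164 in WT, and on the normalised scale both blockade arrays (13.05 and 13.19) were above both Irf4 KO IgG arrays (12.65 and 12.70), which were below the WT arrays (13.04 and 12.89). Its log2 fold change was 0.44 (unadjusted p = 0.0117, adjusted p = 0.0984, limma) in blockade against Irf4 KO IgG and -0.28 (adjusted p = 0.235, limma) in Irf4 KO IgG against WT. Rpl22l1, a paralogue of Rpl22 that can replace it in the ribosome, had 25914 and 21648 with blockade, 15740 and 29975 with Irf4 KO IgG and 22168 and 28941 in WT. On this unscaled intensity the blockade values lay within the range of the Irf4 KO IgG values. On the normalised scale both blockade arrays were above both Irf4 KO IgG arrays, as in 34% of all tested genes. The Rpl22l1 log2 fold changes of -0.08, 0.22 and 0.14 did not pass in any comparison. Rpl36al, a copy of Rpl36a, was at -0.21, 0.20 and -0.01, and the copies Rpl32l and Rpl37rt at 0.02 and -0.02 in Irf4 KO IgG against WT. Copies as near as these can share a probe's signal with the parent gene, so their values are uncertain as values of 1 gene.

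The 6 members outside the test were dim or incomplete. Rpl39l, a paralogue of Rpl39 known from the testis, had an intensity of 24.0 and 79.7 with blockade, 10.03 and 198 with Irf4 KO IgG and 37.3 and 89.2 in WT, with groups that overlapped. Rps4l had 88.6 and 22.6 with blockade, 94.3 and 188 with Irf4 KO IgG and 56.8 and 177 in WT. Rps23rg1 stayed between 21.7 and 49.5 on all 6 arrays. Rpl37, a core large-subunit gene, had only 54.1 and 32.4 with blockade, 24.8 and 28.9 with Irf4 KO IgG and 21.8 and 17.2 in WT, whereas the probe named for its copy Rpl37rt had 234130 and 191031, 157526 and 226758, and 173925 and 229188 in the same groups. Which of the 2 genes the bright probe reads is uncertain. Rpl3l, the paralogue of Rpl3 known from muscle, had 3.46 and 4.47 with blockade, 18.3 and 92.2 with Irf4 KO IgG and 4.85 and 4.08 in WT, and was not well above background on both arrays of any group. Rpl10l, a testis copy of Rpl10, had 4.80 and 4.04 with blockade and 112 and 143 with Irf4 KO IgG, both of the second pair above background, and 6.83 on the 1 usable WT array, where it was not well above background.

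The core members farthest from the family's median did not pass. Rpl5, which binds 5S RNA and regulates Mdm2, had 32907 and 22500 with blockade, 26724 and 41018 with Irf4 KO IgG and 21007 and 40248 in WT. The 2 WT arrays differed from each other by more than any other core member's 2 arrays did, by 0.62 log2 units relative to the family, and the log2 fold change of 0.34 in Irf4 KO IgG against WT had an SE of 0.23 (adjusted p = 0.434, limma). Rpl39, a small protein at the exit tunnel, had 143441 and 133060 with blockade, 83873 and 144483 with Irf4 KO IgG and 135592 and 159645 in WT. On the normalised scale both Irf4 KO IgG arrays were below the 4 others, array 1 at 16.61 and array 2 at 16.96. The log2 fold changes were -0.30 (adjusted p = 0.305) in Irf4 KO IgG against WT and 0.34 (adjusted p = 0.208) in blockade against Irf4 KO IgG (limma). Its 4 other bright probes differed less: relative to the family they lay between -0.14 and 0.01 in Irf4 KO IgG against WT and between -0.02 and 0.06 in blockade against Irf4 KO IgG, beside -0.27 and 0.34 for the probe used. Rpl7a had 87103 and 70548 with blockade, 55634 and 94564 with Irf4 KO IgG and 68483 and 70894 in WT, and 0.37 in blockade against WT (unadjusted p = 0.0473, adjusted p = 0.256, limma). Its second probe gave a smaller difference in that comparison relative to the family, 0.12 beside 0.33, and the opposite sign in Irf4 KO IgG against WT, -0.17 beside 0.20.

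The other members at the ends of the range were close to them. In Irf4 KO IgG against WT the next highest were Rpl7a at 0.26, Rps3a1 at 0.20 and Rpl19 at 0.16, and the next lowest Rps27l at -0.28, Rpl29 at -0.26 and Rpl13a at -0.23. In blockade against Irf4 KO IgG they were Rpl28 at 0.24 and Rpl22l1 at 0.22 on one side, and Rpl21 at -0.23 and Rps3a1 at -0.20 on the other. In blockade against WT they were Rps12 at 0.20 and Rpl36a at 0.18, and Rpl14 at -0.25, Rpl29 at -0.20 and Rpl13a at -0.17. None of these passed in limma.

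Probes of the same gene differed little from each other in most members. 45 members had more than 1 bright probe, 104 probes in all, and the median range between the probes of a gene was 0.06 to 0.07 log2 units in the 3 comparisons. All probes of a gene had the same sign in 27, 29 and 35 of the 45. The largest range in Irf4 KO IgG against WT and in blockade against Irf4 KO IgG was that of Rps24, a small-subunit protein whose mRNA is spliced at its 3′ end into several forms. Its 3 probes are assigned to 3 different RefSeq transcripts. The brightest had an intensity of 173924 and 154300 with blockade, 146840 and 199109 with Irf4 KO IgG and 165100 and 186739 in WT. The dimmest had 637 and 615 with blockade, 1300 and 2779 with Irf4 KO IgG and 607 and 740 in WT, so that both Irf4 KO IgG arrays were above the 4 others. In a fit of each of 10225 bright probes on its own, chosen after seeing the data, that probe had a difference of 1.30 log2 units (SE 0.21, adjusted p = 0.0470, limma) in Irf4 KO IgG against WT and -1.09 (adjusted p = 0.0705, limma) in blockade against Irf4 KO IgG. The brightest probe had 0.09 and -0.06. That fit called 2 of 141 member probes in Irf4 KO IgG against WT, this one and that of Rpl7l1, against 2.41% of all bright probes. It called 0 of 141 in blockade against Irf4 KO IgG and 0 in blockade against WT, against 0.9% and 0.724%. At an unadjusted p under 0.05 limma had 2, 4 and 2 member probes in the 3 comparisons, against 23.3%, 28.6% and 19% of all bright probes, and both Rps27l probes were among the 4.

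Some probes too dim for the test were higher with Irf4 KO IgG on both arrays. The third probe of Rps15a had an intensity of 5.99 and 4.38 with blockade, 83.6 and 181 with Irf4 KO IgG and 4.32 and 4.31 in WT, and was well above background on the 2 Irf4 KO IgG arrays only. Its 2 bright probes differed between Irf4 KO IgG and WT by 0.02 and 0.08 log2 units relative to the family. The second probe of Rps27a had 11.6 and 8.35 with blockade, 84.2 and 371 with Irf4 KO IgG and 9.40 and 13.8 in WT, beside 163915 and 147117, 140884 and 190546, and 171167 and 199139 for its bright probe. Both probes were named after their values were seen. Such a gain was common on these arrays, since 38.3% of all probes dim in WT showed it. When all probes of a gene were averaged, the dim probes made Rps15a (1.62, adjusted p = 0.0107) and Rps27a (1.87, adjusted p = 0.0332) pass in Irf4 KO IgG against WT beside Rpl7l1 (limma), 3 members against 1.94% of all genes so averaged. Both dim probes entered that average only by being well above background on the 2 Irf4 KO IgG arrays. The calls of Rps15a and Rps27a are thus not independent of that filter.

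**Figure D5:**
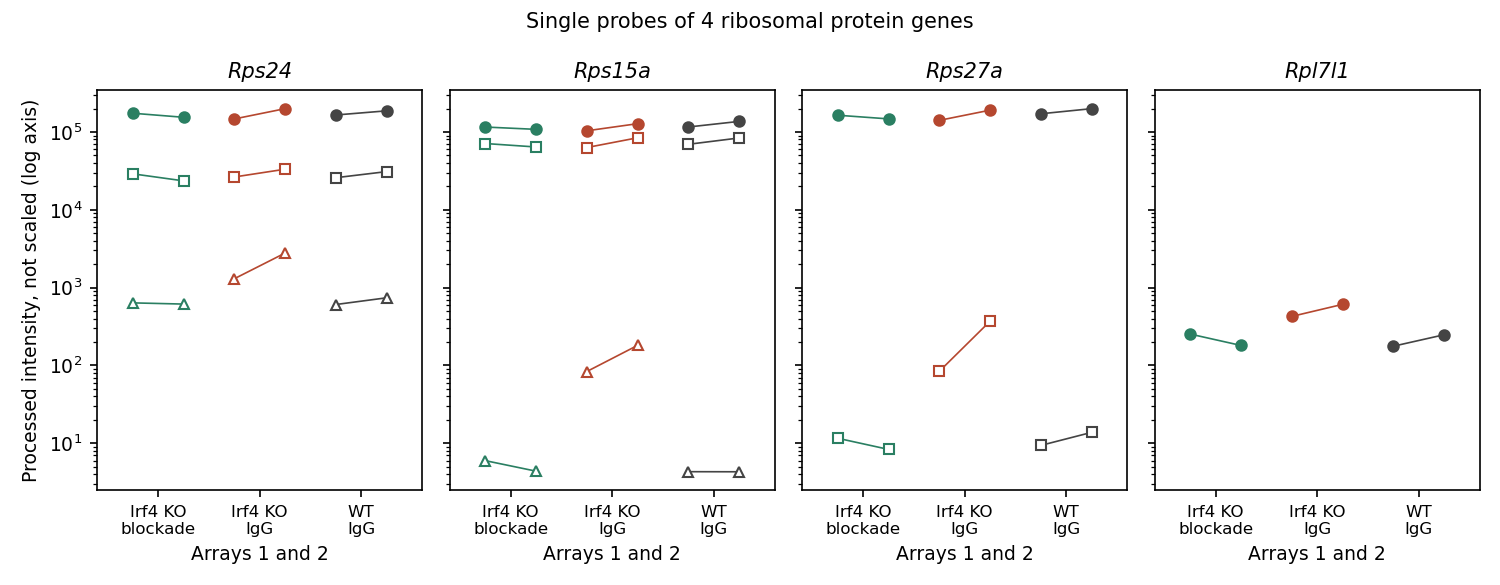
Processed intensity, not scaled (vertical log axis), of every probe of Rps24, Rps15a, Rps27a and Rpl7l1 on arrays 1 and 2 of the 3 groups; each line joins the 2 arrays of a group for 1 probe, and filled circles are the brightest probe. The bright probes are level across the groups, whereas the dimmest probes of Rps24, Rps15a and Rps27a and the Rpl7l1 probe are higher on both Irf4 KO IgG arrays.

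Other genes of translation were compared in the same fit, from lists of 20 elongation and TOP genes, 28 initiation factors, 29 ribosome assembly genes and 16 genes of mTORC1 and S6 kinase. Of the 20, 25, 26 and 12 that were tested, limma called 0 in each comparison, against 1.86%, 0.326% and 1.11% of all tested genes. At an unadjusted p under 0.05 it had 13, 17 and 15 of those 83, against 23.4%, 28.5% and 19.2% of all tested genes. The elongation and TOP genes had medians of -0.001, 0.09 and 0.08 in Irf4 KO IgG against WT, blockade against Irf4 KO IgG and blockade against WT. Initiation factors had 0.02, 0.15 and 0.14, and assembly genes 0.09, 0.04 and 0.15. The genes of mTORC1 and S6 kinase had 0.10, -0.21 and -0.08, and 0 of 12 were positive in blockade against Irf4 KO IgG. Of the 12, 3 had an unadjusted p under 0.05 there (limma), near the 28.5% of all tested genes. A lack of positive values was not particular to this list: 0 of the 13 T cell markers were positive in that comparison, with a median of -0.29.

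Single genes in these lists had log2 fold changes larger than those of the core ribosomal protein genes, and did not pass. Npm1, a nucleolar chaperone with a TOP mRNA, had an intensity of 23438 and 17011 with blockade, 16365 and 24279 with Irf4 KO IgG and 12478 and 17263 in WT, and log2 fold changes of 0.58 (adjusted p = 0.0928, limma) in Irf4 KO IgG against WT and 0.68 (adjusted p = 0.0859, limma) in blockade against WT. Ncl, the nucleolar protein nucleolin, had 7818 and 4962 with blockade, 6556 and 13402 with Irf4 KO IgG and 3758 and 6832 in WT, and 0.92 (adjusted p = 0.109, limma) in Irf4 KO IgG against WT. Polr1c, a subunit of RNA polymerases I and III, had 3552 and 2929 with blockade, 2048 and 3167 with Irf4 KO IgG and 2466 and 2718 in WT. Its log2 fold change in blockade against Irf4 KO IgG was 0.74 (adjusted p = 0.0677, limma). Eif4e, which binds the mRNA cap, was at -0.43 (adjusted p = 0.105) in Irf4 KO IgG against WT and 0.49 (adjusted p = 0.0768) in blockade against Irf4 KO IgG, and its inhibitor Eif4ebp2 at 0.07 (adjusted p = 0.776) and -0.56 (adjusted p = 0.0747) in the same comparisons (limma).

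The mitochondrial ribosome, which translates the few mRNAs of the mitochondrial genome, has its own set of proteins. On the quantile-normalised scale their genes had medians farther from 0 than those of the cytosolic genes. Of 78 genes with a symbol starting Mrpl or Mrps and a number, 74 were tested. Their median log2 fold change was -0.18 in Irf4 KO IgG against WT, 0.34 in blockade against Irf4 KO IgG and 0.13 in blockade against WT, on the scale on which the cytosolic genes had 0.003, -0.013 and -0.004. Positive values numbered 13, 70 and 62 of 74. The 2 arrays of blockade lay wholly above those of Irf4 KO IgG for 62 of the 74 and wholly below for 0, against 34% and 28.9% of all tested genes, and for 17 and 17 of the 82 cytosolic members. limma called 0 of 74 in each comparison, against 1.86%, 0.326% and 1.11% of all tested genes. At an unadjusted p under 0.05, 37 were higher in blockade against Irf4 KO IgG (15.5% of all tested genes), 21 were lower in Irf4 KO IgG against WT (12.8%) and 9 were higher in blockade against WT (9.83%). Mrps22 had an intensity of 563 and 451 with blockade, 360 and 501 with Irf4 KO IgG and 411 and 504 in WT, and 0.96 (SE 0.13, adjusted p = 0.0536, limma) in blockade against Irf4 KO IgG. Without scaling, the medians of the mitochondrial list were -0.10, -0.08 and -0.17, beside 0.15, -0.46 and -0.30 over all tested genes. The sign of the mitochondrial median in blockade against Irf4 KO IgG and against WT thus depended on the scale. Its side of the all-gene median was the same with quantile normalisation and without scaling. The unscaled cytosolic medians, -0.13, -0.01 and -0.15, lay on those same sides. With arrays centred on the median bright gene, the cytosolic medians were farther from 0, at -0.34, 0.52 and 0.18. The mitochondrial medians were then -0.31, 0.46 and 0.16. Whether the 2 lists differ in their change was not tested.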

How the data were processed

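The members and gene lists were chosen with earlier results of these data known. The scanner software was Feature Extraction 11.0.1.1 and the probe design build mm9, per the file headers; the submitters' processing notes give version 9.1 instead. Each deposited file lists an intensity per spot, background-subtracted and not scaled between arrays per the file headers. The authors' value table gives that intensity over 1 factor for each array. Spots marked as unusable were dropped, which left 55371 of 56605 probes. RefSeq accessions named 58.3% of the probes. Genes entered when well above background on both arrays of at least 1 group and at a mean log2 of at least 8, a log2 taken here from the deposited intensity. Their values were quantile-normalised, and limma 3.58.1 in R 4.3.3 fitted all 6 arrays together, with 3 residual degrees of freedom. Adjustment was by Benjamini-Hochberg over all tested genes, at a threshold of 0.05. The fit was tested on simulated data.

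All arrays lie on 1 slide with 1 scan time, and no spot was saturated. The 2 arrays a group limit the precision. Same-numbered arrays deviated together with correlations of 0.02, -0.20 and 0.03, so the numbers were not taken as pairs. For normexp, with an offset of 50, the median signal stood in for the mean signal, which the files used here lack. Genes named are paralogues, members that pass, the 5 farthest above and below the members' median in each comparison, those beyond 3 scaled median absolute deviations, those next to the level minimum, up to 3 genes of each translation list by p, and Irf4; mitochondrial genes and single probes were chosen after their values were seen. limma's adjusted p is meant wherever none else is named.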

Additional observations from a re-analysis of the deposited data

How the results depend on the processing

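The count of ribosomal protein genes called in Irf4 KO IgG against WT (1, Rpl7l1) was 0 with normexp, at a level minimum of 9 or 12 (where Rpl7l1 is not tested), with the slide row as a block, with the 4 arrays compared alone, without scaling between arrays (an alternative chosen after seeing the data) and without any 1 array (0 to 0). With the replicate block it was also 0, with Rpl7l1 at an adjusted p of 0.0779 (limma), and the calls over all genes were 23 against 160 without the block. The block changed no call of a member in blockade against Irf4 KO IgG or against WT. Relative to the family the count of 1 was likewise 0 at a minimum of 9 or 12, with either block, with the 4 arrays alone and without any 1 array (0 to 0). Averaging all probes gave 3 calls on both scales in Irf4 KO IgG against WT and 2 (Rps15a and Rps27a, both lower) in blockade against Irf4 KO IgG. Over all genes so averaged, 1.94% and 0.836% were called, and relative to the family 137 and 90 of 7419. The dim probes of Rps15a and Rps27a entered only through the Irf4 KO IgG arrays.

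Centring on the median bright gene called 11 of 82 members in blockade against Irf4 KO IgG, 10 higher and Rpl7l1 lower. Of all genes, 4.58% were called higher and 2.76% lower there. The medians were -0.34, 0.52 and 0.18 in Irf4 KO IgG against WT, blockade against Irf4 KO IgG and blockade against WT. In these comparisons 1, 5 and 1 of 84 translation genes were called, against 3.16%, 7.34% and 1.57% of all genes. The 75th percentile of all probes gave 81 lower and 82 higher of 86 members in the first 2 of these comparisons. In those directions 27.4% and 27.9% of all detected genes were called, and 58.9% and 58.8% in either direction. The medians were -1.33, 1.53 and 0.20, and 71 and 71 of 91 translation genes were called, in the same directions as the members. The median of all probes gave 85 lower and 84 higher of 86 members, against 52.3% and 52.5% of all detected genes in those directions. In either direction 63.6% and 61.9% of them were called. The medians were -2.99, 3.32 and 0.32, and 91 and 91 of 91 translation genes were called, in the same directions as the members. That scale turned Rpl7l1 to -1.58 in Irf4 KO IgG against WT and to 2.09 in blockade against Irf4 KO IgG. Relative to the family, each of these 3 scales and no scaling called 1 member, Rpl7l1, lower in blockade against Irf4 KO IgG. The value was the same -1.24 in each, since subtracting the family's median cancels the scaling. Over all genes, that fit called 3171 of 8582 with the median bright gene. With the 75th percentile and with the median of all probes it called 17296 of 28252. Cyclic loess moved the median in Irf4 KO IgG against WT to 0.042, and no scaling gave -0.13 there and -0.15 in blockade against WT. Without any 1 array the medians lay at -0.02 to 0.03, -0.03 to 0.02 and -0.02 to 0.02. The dimmest Rps24 probe kept its call with arrays centred on the median (1.27, adjusted p = 0.0338, limma). That centred fit of single probes called 2, 24 and 0 of 141 member probes in the 3 comparisons, beside 2, 0 and 0 with quantile normalisation. Its share over all bright probes was not computed. Apart from the level minimum, the cause of these differences was not tested.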
